A study of Sus scrofa with 37 samples.

Results

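Delta cells, which make somatostatin, were compared with insulin-producing beta cells in the pancreas of pigs at postnatal day 22 (P22). The comparison took every library labelled with these cell types and that age, 3 delta and 3 beta libraries, which are 6 of the 37 libraries of the series. Of the 22630 genes in the table, 15452 reached 1 TPM in at least 2 of the 6 libraries and were tested. The series profiled beta, alpha and delta cells from pig pancreas, isolated by fluorescence-activated cell sorting (FACS), between embryonic day 40 and P22. The 2 alpha libraries of P22 are given as values beside the comparison, and 2 delta and 2 beta libraries of embryonic day 90 (E90) served to compare the same difference before birth. All of these groups are described by cell type and age alone: the labels name no strain, genotype, sex or treatment for them. They also do not say which markers the sort used, whether animals were pooled, or whether the libraries of a group came from different animals, so p-values measure the spread between libraries, which may be technical.

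Beta cells release insulin when blood glucose rises, alpha cells release glucagon when it falls, and delta cells release somatostatin, which acts on receptors of neighbouring alpha and beta cells and restrains the release of both hormones. Delta cells are electrically excitable and send thin processes between the other islet cells. Beta cells of many mammals secrete urocortin 3 (UCN3), which acts on its receptor CRHR2 on delta cells and promotes somatostatin release, and in mouse and human islets the ghrelin receptor GHSR is largely a delta cell gene.

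The hormone transcripts followed the cell type labels. Values are in TPM, the number of transcripts per 1000000, a scale that accounts for transcript length. They are given for replicates 1, 2 and 3 in that order. They hold no read counts, so the depth of each library is unknown. SST, the somatostatin gene, was at 17408, 35765 and 18111 TPM in delta and 84.8, 39.1 and 14 TPM in beta cells. Its lowest delta value was far above its highest beta value (log2 9.23 ± 0.61; adjusted p = 0.00099; ± is the standard error of the fit). INS, the insulin gene, was at 4146, 5156 and 1004 TPM in delta and 268879, 239333 and 350240.0 TPM in beta cells (log2 -6.67 ± 1.20; adjusted p = 0.026). Insulin transcripts were therefore present in all 3 delta libraries, where their mean was 1.2% of the beta mean. In sorted bulk samples, fewer cells of a type and less RNA per cell cannot be told apart. If the sort used hormone content, the SST and INS levels restate it. GCG, the glucagon gene, was at 33.6, 53.6 and 31.9 TPM in delta and 7.49, 11.5 and 89.5 TPM in beta cells, against 89960.5 and 94744 TPM in the 2 alpha libraries, and the delta and beta ranges overlapped (log2 0.90 ± 0.79; adjusted p = 0.533). The INS call was lost in the fits without delta replicate 1 or 3 or beta replicate 1, 2 or 3 (adjusted p = 0.0934 to 0.112) and without a filter on low values (adjusted p = 0.361).

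The delta libraries resembled each other less than the beta libraries did. Over the 15452 genes tested, Pearson's r between log2 profiles was 0.760 to 0.796 for the 3 delta pairs and 0.892 to 0.932 for the 3 beta pairs. Delta replicate 2 stood apart: its r with the beta libraries was 0.774 to 0.801 and with the other delta libraries 0.760 and 0.777. The same library held the most acinar transcripts, with summed acinar markers at 7642, 42575 and 13321 TPM in delta and 15748, 1646 and 38775 TPM in beta replicates 1, 2 and 3. Between 13373 and 14510 genes reached 1 TPM in delta and 14343 to 14878 in beta libraries. INS alone took 23.9 to 35% of the TPM of beta libraries and 0.1 to 0.516% of delta libraries. Since the columns share a fixed sum, other genes sit lower in beta cells on this scale. The median difference over all genes was log2 0.33 and moved to -0.07 when libraries were scaled by the median of ratios. Changes smaller than this shift carry no direction.

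Of 15452 genes tested, 355 were higher and 143 lower in delta cells at an adjusted p below 0.05. These are 3.22% of the genes, 2.30% higher and 0.925% lower. All 3 delta libraries lay above all 3 beta libraries for 21.7% of the genes tested and below them for 6.86%. The split of calls depended on the scaling, with 191 higher and 219 lower by the median of ratios, 225 and 216 by quantile normalization, and 148 and 204 when hormone and mitochondrial genes were removed first. The median of ratios thus called 1.23% of genes higher and 1.41% lower. Without delta replicate 2 there were 1711 higher and 436 lower, 11.2% and 2.85% of the 15312 genes then tested. Since this fit called more genes of any kind, list counts and single genes given for it below are to be read beside these shares. Without delta replicate 1 there were 116 and 88, and without delta replicate 3 there were 157 and 154. Without beta replicate 1, 2 or 3 the counts were 82 and 43, 78 and 47, and 60 and 38. Without both delta replicate 2 and beta replicate 3, the libraries with the most acinar transcripts, they were 221 and 94. No call with all 6 libraries changed sign in any of these fits. A call is described below as held throughout where it passed in all 18 alternative fits of processing and library choice (17 for hormone genes, which 1 of the fits removes). Of the 111 called genes named here, 42 held throughout, 67 were lost in at least 1 fit without 1 library, and 2 were lost elsewhere only.

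**Figure D1:**
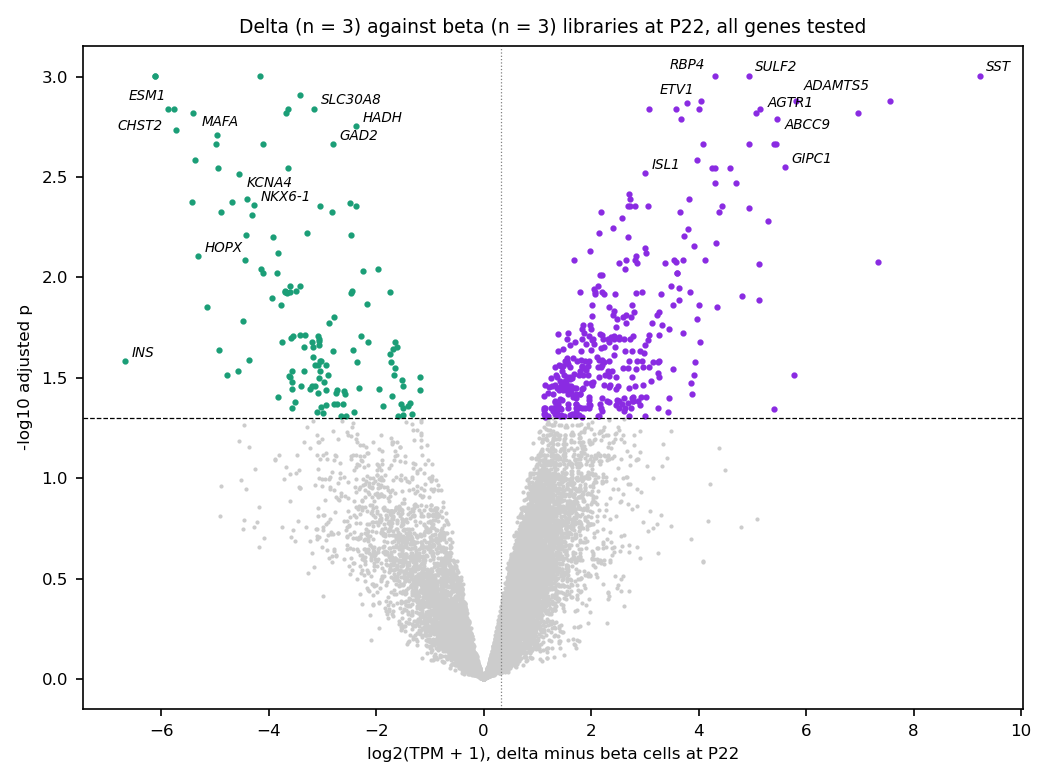
Each point is a gene, with the difference in log2(TPM + 1) between the 3 delta and 3 beta libraries of P22 on the horizontal axis and -log10 of the adjusted p on the vertical axis. The dashed line is an adjusted p of 0.05, the dotted line the median difference of all genes (0.33), and the coloured points are the 355 genes higher and 143 lower in delta cells. SST lies farthest to the right of the named genes and INS farthest to the left.

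Markers known for delta cells were partly higher. Of 25 listed genes 23 could be tested, and 6 of these were higher and none lower (8 and 1 without delta replicate 2), with a median log2 of 1.14 against 0.33 over all genes. Calls made up 26.1% of the tested members, against 3.22% of all genes. RBP4, a carrier protein of vitamin A, was at 326, 494 and 258 TPM in delta and 19.5, 14.7 and 15.8 TPM in beta cells (log2 4.31 ± 0.30; adjusted p = 0.00099). CASR, the calcium-sensing receptor, was at 198, 321 and 199.7 TPM in delta and 20.1, 13.1 and 9.26 TPM in beta cells (log2 4.01 ± 0.35; adjusted p = 0.00144). FFAR4, a receptor for long-chain fatty acids, was at 26.6, 23.2 and 27.5 TPM in delta and 1.08, 0 and 0 TPM in beta cells (log2 4.39 ± 0.52; adjusted p = 0.00471). In each of the 3 genes every delta library was above every beta library, and these calls, with those of SST and the sodium-activated potassium channel gene KCNT2 (2.68 ± 0.34), held throughout. HHEX, a homeobox factor needed for delta cell formation in mice, was at 25.4, 57.1 and 24.9 TPM in delta and 3.25, 3.55 and 1.06 TPM in beta cells (log2 3.32 ± 0.53; adjusted p = 0.0172). Its symbol is shared by more than 1 gene identifier, so its level is uncertain. The call was lost without any 1 beta library (adjusted p = 0.0623 to 0.0804 without beta replicate 1, 2 or 3).

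Other genes used as delta markers in mouse or human did not differ by the test. GHSR was at 15.5, 13.6 and 16.4 TPM in delta and 19.9, 18 and 15.4 TPM in beta cells, with overlapping ranges (log2 -0.21 ± 0.34; adjusted p = 0.741; 95% interval -0.98 to 0.55). LEPR, the leptin receptor gene, was at 41.9, 15.8 and 21.1 TPM in delta and 14.4, 18 and 7.77 TPM in beta cells (log2 0.88 ± 0.48; adjusted p = 0.312). CRHR2 lay higher in all 3 delta libraries, at 26.3, 21.9 and 22.7 TPM in delta and 5.29, 10.5 and 2.36 TPM in beta cells, without passing the test (log2 1.98 ± 0.51; adjusted p = 0.0806; 95% interval 0.81 to 3.14). CALB1, a calcium-binding protein gene listed with the delta markers, lay lower in all 3 delta libraries, at 1.78, 16.5 and 1.14 TPM in delta and 49.4, 38.7 and 46.7 TPM in beta cells, and also did not pass (log2 -3.28 ± 0.74; adjusted p = 0.0555; adjusted p = 0.00213 without delta replicate 2). CALB1 passed in 7 of the 18 alternative fits, with an adjusted p up to 0.230 in the others. The synaptic pentraxin gene NPTX2 (143, 299 and 199 against 91.1, 79.2 and 73 TPM; adjusted p = 0.0604) and the growth factor receptor gene ERBB4 (35.1, 13.9 and 24.4 against 15.5, 2.72 and 3.90 TPM; adjusted p = 0.151) were not called either. The ranges did not overlap for NPTX2. It passed in 5 of the 18 alternative fits, as without delta replicate 2 (adjusted p = 0.0347), and not by the median of ratios (adjusted p = 0.235). PRG4 and PTCHD4 were too low to test.

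Many beta cell markers were lower in delta cells. Of 29 listed genes 25 could be tested, and none was higher and 14 were lower (1 and 16 without delta replicate 2), with a median log2 of -2.17. That is 56% of the tested members, against 3.22% of all genes. ESM1, which encodes a secreted proteoglycan, was at 13.4, 26.3 and 5.30 TPM in delta and 772, 797 and 626 TPM in beta cells (log2 -5.75 ± 0.48; adjusted p = 0.00144). SLC30A8, the zinc transporter of insulin granules, was at 69.5, 50.8 and 64 TPM in delta and 548, 684 and 439 TPM in beta cells (log2 -3.15 ± 0.27; adjusted p = 0.00144). HADH, an enzyme of fatty acid oxidation that restrains insulin release, was at 63.7, 72.7 and 67.4 TPM in delta and 337, 371 and 357 TPM in beta cells (log2 -2.37 ± 0.22; adjusted p = 0.00177). For these genes the beta libraries were close to each other and all above the delta libraries. GAD2, which makes the transmitter GABA, was at 20.8, 15 and 20.1 TPM in delta and 168, 118 and 124 TPM in beta cells (log2 -2.81 ± 0.28; adjusted p = 0.00216). ERO1B, which forms disulfide bonds in the endoplasmic reticulum, was at 99.6, 64.7 and 62.7 TPM in delta and 446, 531 and 992 TPM in beta cells (log2 -3.04 ± 0.35; adjusted p = 0.00443). The homeodomain gene HOPX was at 8.86, 0.504 and 10.6 TPM in delta and 195, 231 and 236 TPM in beta cells (log2 -5.31 ± 0.70; adjusted p = 0.00782). The calls of ESM1, SLC30A8, HADH, GAD2 and ERO1B held throughout, and that of HOPX was lost in 1 fit (adjusted p = 0.071 without beta replicate 3).

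Some beta cell genes were not called with all 6 libraries. ABCC8, the sulfonylurea receptor subunit of the beta cell KATP channel, was at 344, 236 and 326 TPM in delta and 281, 311 and 301 TPM in beta cells (log2 0.00 ± 0.25; adjusted p = 0.995; 95% interval -0.58 to 0.58). PCSK1, a protease that cleaves proinsulin, was at 364, 414 and 294 TPM in delta and 328, 286 and 218 TPM in beta cells, against 1.52 and 3.41 TPM in alpha cells (log2 0.37 ± 0.27; adjusted p = 0.45). PDX1, the pancreatic factor that also acts in delta cells, was lower in all 3 delta libraries, at 52.7, 42.2 and 64.8 TPM in delta and 130.1, 138 and 94 TPM in beta cells, against 1.46 and 3.05 TPM in alpha cells, and missed the threshold (log2 -1.17 ± 0.28; adjusted p = 0.0649). It passed by the median of ratios, by quantile normalization and with hormone and mitochondrial genes removed (adjusted p = 0.00876, 0.0127 and 0.0231). PRLR, the prolactin receptor gene, was also lower in all 3 delta libraries, at 67.2, 38.2 and 43.7 TPM in delta and 100.3, 158 and 110.0 TPM in beta cells (log2 -1.30 ± 0.31; adjusted p = 0.0643), and passed in the same 3 fits (adjusted p = 0.0242, 0.0226 and 0.0275). GLP1R, the receptor of the incretin GLP-1, overlapped, at 15.6, 18.6 and 33 TPM in delta and 36.4, 35.8 and 23 TPM in beta cells (log2 -0.53 ± 0.38; adjusted p = 0.439; 95% interval -1.39 to 0.34). ENTPD3 was higher in all 3 delta libraries, at 42.7, 29.8 and 31 TPM in delta and 15.9, 21.2 and 10.2 TPM in beta cells, and not called (log2 1.12 ± 0.37; adjusted p = 0.137). SYT13 (-0.18 ± 0.30), SAMD11 (0.33 ± 0.53), RGS16 (-0.19 ± 0.46) and TSPAN1 (0.47 ± 0.74) were not called either. IAPP and ADCYAP1 were listed at 0 in all 6 libraries and DLK1 and SIX3 were too low to test.

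Among other hormone and peptide genes, UCN3 passed the test. It was at 73.6, 50.3 and 16.6 TPM in delta and 383, 409 and 515 TPM in beta cells (log2 -3.41 ± 0.49; adjusted p = 0.011), so each delta library held a measurable level and each beta library more. The call was lost without any 1 beta library (adjusted p = 0.0532 to 0.0804 without beta replicate 1, 2 or 3). PPY, the pancreatic polypeptide gene, was at 6.68, 113 and 0 TPM in delta and 143, 45.7 and 194 TPM in beta cells, with wide spread in both groups and 593 and 554 TPM in alpha cells (log2 -3.52 ± 1.45; adjusted p = 0.205). PENK, the enkephalin precursor gene, lay higher in all 3 delta libraries, at 84, 173 and 76.9 TPM in delta and 35.3, 66.4 and 1.25 TPM in beta cells, without passing (log2 2.57 ± 1.09; adjusted p = 0.217; 95% interval 0.08 to 5.06). TAC1, the substance P precursor gene, was at 18.9, 0 and 8.58 TPM in delta and 0, 0.240 and 0.089 TPM in beta cells (log2 2.38 ± 1.03; adjusted p = 0.223). Without delta replicate 2, PPY was called lower and TAC1 higher (adjusted p = 0.0166 and 0.0152). Each was called in that alternative fit only, with adjusted p up to 0.501 and 0.466 in the others. NMU, the neuromedin U gene, was listed at 0 in the 3 delta libraries and at 5.74, 1.95 and 4.12 TPM in beta cells, and did not pass (adjusted p = 0.0779). Of the 26 listed peptide genes 25 were in the table and 10 could be tested, and GHRL, NPY, CCK, VIP and PYY were among the 15 too low to test.

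Transcription factors lay on both sides. Of 61 listed islet factors 51 could be tested, and 7 were higher and 6 lower in delta cells (11 and 8 without delta replicate 2, 7 and 8 by the median of ratios), with a median log2 of 0.17. Together the calls were 25.5% of the tested factors, against 3.22% of all genes. Among the higher factors, ISL1, a LIM homeobox gene that drives SST and other islet hormone genes, was at 353, 331 and 460.4 TPM in delta and 44.7, 68.8 and 32.1 TPM in beta cells (log2 3.0 ± 0.32; adjusted p = 0.00302). ETV1, an ETS factor, was at 140.5, 185 and 144 TPM in delta and 8.89, 11.6 and 5.75 TPM in beta cells (log2 4.05 ± 0.32; adjusted p = 0.00132). RFX6, needed for endocrine differentiation, was at 599.6, 369.5 and 633 TPM in delta and 125, 143 and 93.8 TPM in beta cells (log2 2.12 ± 0.30; adjusted p = 0.011). The delta and beta ranges did not overlap for these genes, and the 2 alpha libraries held 153 and 168 TPM of ISL1, 181 and 149 of ETV1 and 648 and 383 of RFX6. ETV5 (2.76 ± 0.48) and ST18 (1.81 ± 0.32) were also higher. ISL1 and ETV1 held throughout. RFX6 was lost in 2 fits (adjusted p = 0.0604 to 0.071 without beta replicate 1 or 3) and ETV5 and ST18 each in 5 fits without 1 library (adjusted p up to 0.127).

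The lower factors included genes of beta cell identity. MAFA, which activates insulin transcription, was at 0, 0 and 0.928 TPM in delta and 62.4, 47.4 and 46 TPM in beta cells (log2 -5.40 ± 0.48; adjusted p = 0.00152). NKX6-1, which maintains beta cell identity, was at 14.2, 5.99 and 3.72 TPM in delta and 174, 212 and 94.6 TPM in beta cells (log2 -4.26 ± 0.49; adjusted p = 0.00436). For both genes every delta library was below every beta library. MNX1, a homeobox gene of beta cell formation, was at 3.19, 2.50 and 0.663 TPM in delta and 54.1, 32.1 and 44.8 TPM in beta cells (log2 -3.92 ± 0.49; adjusted p = 0.0063). NKX2-2, which acts upstream in endocrine cells, was at 5.73, 13.1 and 7.57 TPM in delta and 39.2, 33 and 28.3 TPM in beta cells (log2 -1.87 ± 0.40; adjusted p = 0.0438). ZNF385D, a zinc finger gene, was listed at 0 in the 3 delta libraries and at 22.5, 23.3 and 12.5 TPM in beta cells (adjusted p = 0.00492). The calls of MAFA, NKX6-1 and ZNF385D held throughout. MNX1 was lost without beta replicate 1 or 3 (adjusted p = 0.0578 to 0.0707) and without both libraries richest in acinar transcripts. NKX2-2 was lost without any 1 of 5 libraries (adjusted p up to 0.18) and passed in 8 of the 18 alternative fits.

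Most other islet factors were not called. PAX6 (558, 322 and 618 against 718, 767 and 464 TPM), INSM1 (127, 245 and 97.2 against 185, 156 and 135 TPM) and FOXA2 (88.9, 119.9 and 42.7 against 88.2, 77.4 and 68.5 TPM) overlapped between the cell types. NEUROG3, the factor that starts endocrine differentiation in the embryo, was at 78.6, 97.2 and 71.7 TPM in delta and 32.8, 25 and 7.52 TPM in beta cells and listed at 0 in both alpha libraries (log2 2.08 ± 0.49; adjusted p = 0.064). Its lowest delta value was above its highest beta value, but the test was not passed. MYT1L (1.86 ± 0.43), GLIS3 (-1.91 ± 0.45), RFX3 (1.19 ± 0.29), MEIS2 (1.31 ± 0.33) and NEUROD1 (0.70 ± 0.26) also had no overlap and did not pass, with adjusted p between 0.0586 and 0.169. GLIS3 passed by the median of ratios (adjusted p = 0.0175). Without delta replicate 2, MYT1L, GLIS3, RFX3 and MEIS2 passed (adjusted p = 0.0184, 0.03, 0.0376 and 0.0192). In that fit 11.2% of all genes were higher and 2.85% lower.

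**Figure D2:**
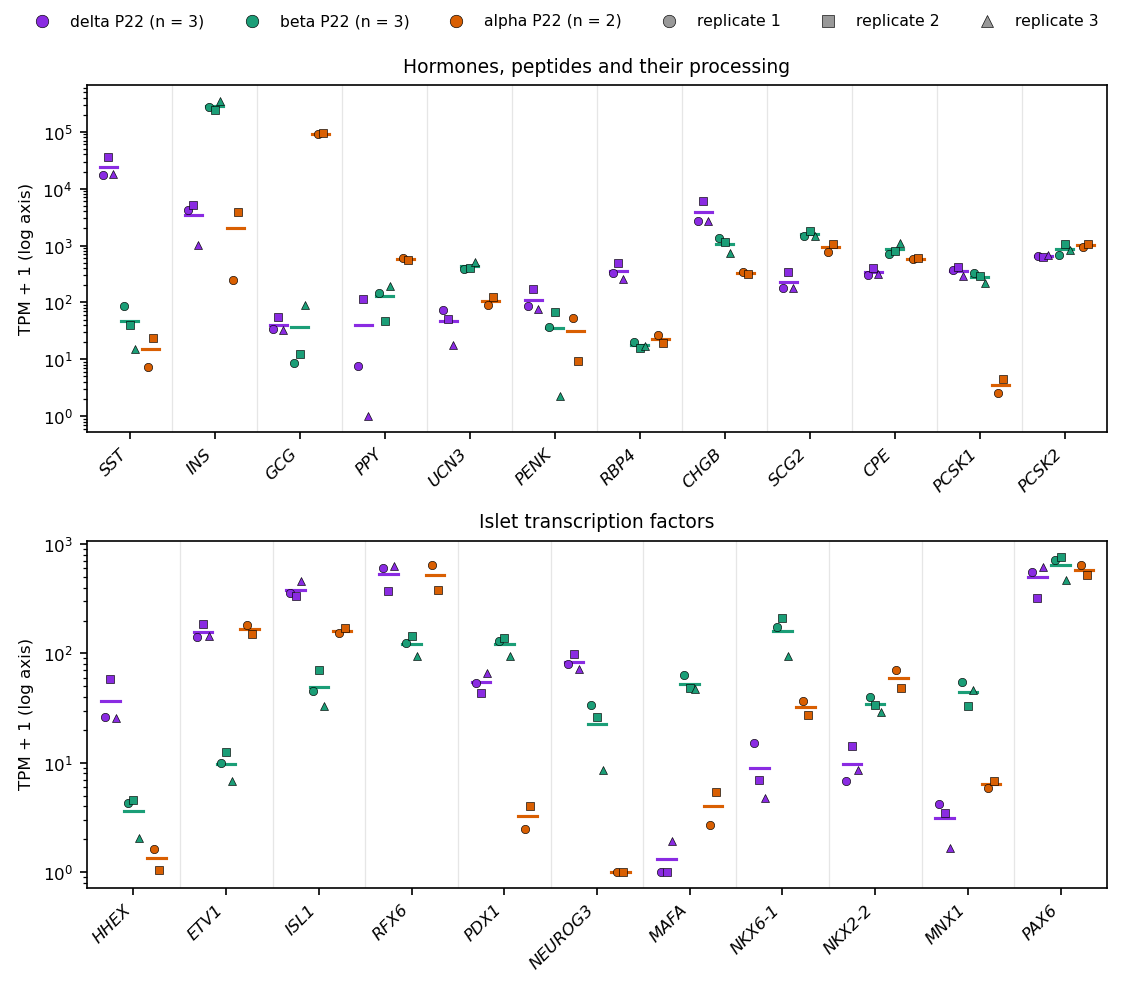
TPM plus 1 on a log axis for hormones, peptides and processing genes (top) and islet transcription factors (bottom) in the 3 delta, 3 beta and 2 alpha libraries of P22. Symbols mark the replicate and short lines the group mean of TPM. SST, RBP4, ETV1 and ISL1 are higher in every delta than in every beta library, and MAFA and NKX6-1 are lower, while PCSK1 and PAX6 overlap.

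Alpha cell markers went both ways. Of 24 listed genes 21 could be tested, and 3 were higher and 4 lower in delta cells (5 and 4 without delta replicate 2), with a median log2 of 0.28. The share called was 33.3%, against 3.22% of all genes. DPP4, the peptidase that degrades incretins, was at 139.6, 60.9 and 86.3 TPM in delta and 10, 9.38 and 10.7 TPM in beta cells and at 186 and 221 TPM in alpha cells (log2 3.05 ± 0.36; adjusted p = 0.00443). PLCE1, a phospholipase C gene, was at 43, 35.6 and 52.6 TPM in delta and 4.66, 4.54 and 1.52 TPM in beta cells but at only 2.65 and 3.31 TPM in alpha cells (log2 3.37 ± 0.45; adjusted p = 0.0085). Listed as an alpha marker, PLCE1 was thus highest in delta cells here. SLC7A2, a transporter of cationic amino acids, was at 33.9, 22 and 23.7 TPM in delta and 154, 179 and 122 TPM in beta cells and at 546 and 549 TPM in alpha cells (log2 -2.48 ± 0.28; adjusted p = 0.00426). TTR, the transthyretin gene, was at 145, 346 and 113 TPM in delta and 722, 933 and 1136 TPM in beta cells (log2 -2.35 ± 0.43; adjusted p = 0.0265). The alpha gene IRX1 was listed at 0 in all 3 delta libraries, against 74.8 and 109 TPM in alpha cells. IRX2 was at 1.74, 1.54 and 3.77 TPM in delta cells, against 147 and 130.5 TPM in alpha cells. POU3F4, also on the alpha list, was at 0 in the delta libraries and in both alpha libraries, so it does not separate these cell types here. DPP4, PLCE1 and SLC7A2 held throughout and TTR was lost without any 1 of 5 libraries (adjusted p up to 0.138).

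The 6 genes that follow were among the 15 largest rises with a mean of at least 10 TPM. ADAMTS5, a protease that cuts aggrecan, was at 155, 88.2 and 95.1 TPM in delta and 0.467, 2.29 and 0.577 TPM in beta cells and at 34.8 and 31.9 TPM in alpha cells (log2 5.81 ± 0.46; adjusted p = 0.00132). SULF2, an enzyme that removes sulfate from heparan sulfate on the cell surface, was at 138, 135 and 173 TPM in delta and 3.57, 4.41 and 3.68 TPM in beta cells (log2 4.93 ± 0.29; adjusted p = 0.00099). SYNE1, which links the nucleus to the cytoskeleton, was at 163, 57 and 93.7 TPM in delta and 2.49, 1.85 and 1.44 TPM in beta cells (log2 5.06 ± 0.46; adjusted p = 0.00152). The 2 alpha libraries held 0.975 and 1.18 TPM of SULF2 and 0.225 and 0.361 TPM of SYNE1, below every beta library, and more ADAMTS5 than the beta libraries did. VSTM2A, which encodes a secreted immunoglobulin-domain protein, was at 158, 77.7 and 63.8 TPM in delta and 1.42, 2.50 and 0.254 TPM in beta cells (log2 5.41 ± 0.53; adjusted p = 0.00216). SLITRK1, a synaptic adhesion protein gene, was at 50.7, 27.1 and 44.8 TPM in delta and 0.173, 0.265 and 0.556 TPM in beta cells (log2 4.94 ± 0.48; adjusted p = 0.00216). GIPC1, a PDZ adaptor that binds receptors and myosin VI, was at 396, 70.3 and 223 TPM in delta and 2.15, 3.35 and 3.04 TPM in beta cells (log2 5.60 ± 0.58; adjusted p = 0.00282). Delta and beta libraries did not overlap for any of these genes, and GIPC1 was lowest among delta cells in replicate 2. These calls held throughout.

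Further genes among the 15 largest rises were NEUROG1, a proneural factor gene, at 71.4, 60.2 and 12.7 TPM in delta and 0, 0 and 0.403 TPM in beta cells (log2 5.13 ± 0.70; adjusted p = 0.00857). ASIC2, a proton-gated sodium channel gene, was at 98.5, 65 and 49.3 TPM in delta and 3.61, 0 and 0.201 TPM in beta cells (log2 5.29 ± 0.64; adjusted p = 0.00522). Their calls were lost in few fits (highest adjusted p 0.0589 and 0.0545), for NEUROG1 without beta replicate 3 and for both without the 2 libraries richest in acinar transcripts. The atypical cadherin gene FAT3 was at 28.6, 18.8 and 64.7 TPM in delta and 0, 0 and 0.315 TPM in beta cells. The identifiers named LSM5 (ENSSSCG00000029661.2; 763, 223 and 364 against 0, 0 and 13.7 TPM) and RPL15 (ENSSSCG00000027965.2; 129, 87.4 and 62.6 against 8.33, 0 and 0.881 TPM) completed the 15 with CHL1, ABCC9 and AGTR1, described below. FAT3, LSM5 and RPL15 share their symbol with another identifier, so reads may be split between copies and their levels are uncertain. The call of RPL15 was lost in 2 of the fits without 1 library (adjusted p = 0.0574 to 0.0871 without delta replicate 1 or beta replicate 3).

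Among the 15 largest falls, 4 genes were listed at 0 in all 3 delta libraries, so no fold is given. These were AC124312.1 (72.1, 67.3 and 64.8 TPM in beta cells), SNN, a small membrane protein gene (35.8, 87.6 and 60.1 TPM), KCNG3, a modifier subunit of voltage-gated potassium channels (31.8, 25 and 34.8 TPM), and an identifier named LLPH (ENSSSCG00000034032.1; 38.2, 34.4 and 21.4 TPM), whose symbol is shared. An exact 0 can be a failed estimate in these values, since 1 to 3 of 40 ribosomal protein genes were also at 0 in each of the 6 libraries. Of the 143 genes called lower, 32 were at 0 in all delta libraries, and of the 355 called higher, 7 were at 0 in all beta libraries. CHST2, a sulfotransferase that modifies cell surface sugars, was at 0, 1.42 and 0 TPM in delta and 46.5, 75.2 and 98 TPM in beta cells (log2 -5.73 ± 0.54; adjusted p = 0.00186). KCNA4, a voltage-gated potassium channel gene, was at 0.162, 1.13 and 0.910 TPM in delta and 44.4, 46.2 and 27.8 TPM in beta cells (log2 -4.56 ± 0.49; adjusted p = 0.00306). COCH, an extracellular matrix protein gene, was at 0, 0 and 2.37 TPM in delta and 40.8, 45 and 44.5 TPM in beta cells (log2 -4.89 ± 0.58; adjusted p = 0.00475). For CHST2, KCNA4 and COCH every beta library was far above every delta library, and the call of COCH was lost in 1 fit without 1 library (adjusted p = 0.0551 without beta replicate 3). ANXA10 (11.6, 0 and 7.74 against 122, 111 and 218 TPM), AMDHD1 (0, 0 and 7.42 against 51.3, 73.2 and 27.7 TPM) and MTLN (0, 0 and 2.88 against 16.9, 54.1 and 42.1 TPM) were lower as well, with calls that were each lost in 3 or more fits without 1 library (adjusted p up to 0.142).

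The listed ion channel genes were mostly higher in delta cells where they passed the test. Of 105 listed genes 79 could be tested, and 13 were higher and 2 lower (26 and 2 without delta replicate 2, 11 and 2 by the median of ratios), with a median log2 of 0.62. These calls were 19% of the tested members, against 3.22% of all genes. The list leaves out KCNA4 and KCNG3, given above, which were called lower and are not in these counts. In all, 28 of the 79 tested members had all delta libraries above all beta libraries and 6 below, where all genes had 21.7% above and 6.86% below. ABCC9 and KCNJ8 encode SUR2 and Kir6.1, the subunits of the KATP channel type known from vascular muscle and pericytes. ABCC9 was at 98.9, 75.6 and 125 TPM in delta and 0.686, 3.42 and 0.538 TPM in beta cells and listed at 0 in both alpha libraries (log2 5.45 ± 0.50; adjusted p = 0.00163). KCNJ8 was at 42.3, 77.9 and 37.7 TPM in delta and 0.856, 1.96 and 0.769 TPM in beta cells and at 0.778 and 1.18 TPM in alpha cells (log2 4.58 ± 0.48; adjusted p = 0.00285). Within beta cells both were highest in replicate 2. Pericytes express both genes, and the listed mesenchyme and stellate cell markers varied: of 21 in the list 16 could be tested, 1 was higher in delta cells (FN1, given below) and none lower, and the list summed to 233 to 609 TPM in delta and 260.2 to 1057 TPM in beta libraries. Among its pericyte genes, PDGFRB was at 0, 0 and 0 TPM in delta and 0.204, 3.75 and 0.497 TPM in beta cells, RGS5 at 0, 0 and 0.187 TPM in delta and 0.140, 8.51 and 0.650 TPM in beta cells, and CSPG4 at 0.272, 0 and 0 TPM in delta and 0, 2.73 and 0.343 TPM in beta cells. Within beta cells, these 3 genes, ABCC9 and KCNJ8 were all highest in replicate 2. The part of such cells in the result was not tested. The ABCC8 subunit was at similar TPM in both cell types, as given above, and its partner KCNJ11 is not named in the table.

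Other potassium, sodium and calcium channel genes rose in delta cells. KCNJ6, a G protein-gated inward rectifier through which somatostatin and other transmitters act, was at 101, 66.6 and 124 TPM in delta and 10.5, 7.41 and 3.40 TPM in beta cells (log2 3.66 ± 0.43; adjusted p = 0.00471). KCNT2 was at 81.4, 57.3 and 105 TPM in delta and 13.8, 12.3 and 8.85 TPM in beta cells. SCN3A, a voltage-gated sodium channel gene, was at 224, 175 and 213 TPM in delta and 26.5, 40.5 and 13.3 TPM in beta cells (log2 3.01 ± 0.39; adjusted p = 0.00712). These 3 genes had no overlap between groups, and the smallest delta value lay in replicate 2 in each. ITPR1, the receptor that releases calcium from the endoplasmic reticulum, was at 188, 136 and 117 TPM in delta and 22.3, 27.2 and 15 TPM in beta cells (log2 2.73 ± 0.32; adjusted p = 0.00443). CACNA1A, the pore subunit of P/Q-type calcium channels, was at 636, 293 and 597 TPM in delta and 147, 145 and 107 TPM in beta cells (log2 1.86 ± 0.34; adjusted p = 0.0282). Its accessory subunit gene CACNA2D1 was at 446, 337 and 499 TPM in delta and 119, 143 and 106 TPM in beta cells (log2 1.79 ± 0.26; adjusted p = 0.0118). KCNJ6, KCNT2, SCN3A and ITPR1 held throughout. SCN2A (3.98 ± 0.63), KCNIP1 (2.38 ± 0.39), CACNA2D2 (1.57 ± 0.32), GLRA3, a glycine receptor subunit (2.16 ± 0.45), CACNA1A and CACNA2D1 were each lost in 2 or more fits without 1 library (adjusted p up to 0.159).

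Lower channels in delta cells were potassium channel genes. KCNA5 was at 0.583, 6.10 and 0.470 TPM in delta and 30.4, 20.3 and 27.7 TPM in beta cells (log2 -3.39 ± 0.67; adjusted p = 0.0346). KCNH6 was at 8.59, 15.1 and 8.18 TPM in delta and 44.6, 56.6 and 30 TPM in beta cells (log2 -1.95 ± 0.39; adjusted p = 0.036). Neither gene overlapped between the groups. Their calls were lost without any 1 library except delta replicate 2 (adjusted p up to 0.177). KCNA4 and KCNG3, given above and not part of the channel list, were lower too. CACNA1H, a T-type calcium channel gene, was at 98.5, 59.5 and 79.9 TPM in delta and 32.1, 35.7 and 25 TPM in beta cells (log2 1.32 ± 0.30; adjusted p = 0.0541). Every delta library was above every beta library, and the test was not passed with all libraries but was without delta replicate 2 (adjusted p = 0.0189).

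Receptor genes also separated the cell types in both directions. Of 76 listed hormone and paracrine receptor genes 72 were in the table and 62 could be tested, and 8 were higher and 5 lower (10 and 7 without delta replicate 2, 3 and 8 by the median of ratios), with a median log2 of 0.54. Calls made up 21% of the tested members, against 3.22% of all genes. Genes named as higher here are not all from this list, and not every member called lower is named. AGTR1, the type 1 angiotensin II receptor gene, which was among the 15 largest rises, was at 65.9, 61.1 and 53.8 TPM in delta and 0.314, 0.515 and 1.62 TPM in beta cells and at 0 and 1.26 TPM in alpha cells (log2 5.14 ± 0.45; adjusted p = 0.00144). CASR and FFAR4, given with the delta markers, were also higher. AGTR1, CASR and FFAR4 held throughout. GCGR, the glucagon receptor gene, was at 56.2, 54.9 and 35.6 TPM in delta and 16.4, 16 and 13.7 TPM in beta cells (log2 1.58 ± 0.31; adjusted p = 0.0354). OXTR, the oxytocin receptor gene, was at 38, 22.7 and 18.7 TPM in delta and 2.05, 1.17 and 4.45 TPM in beta cells and at 112 and 175 TPM in alpha cells (log2 2.99 ± 0.53; adjusted p = 0.0238). AVPR1B, a vasopressin receptor gene, was at 7.67, 52 and 28.6 TPM in delta and 2.51, 0.282 and 1.38 TPM in beta cells (log2 3.44 ± 0.74; adjusted p = 0.047). GFRA1 (2.96 ± 0.55), P2RY14 (1.43 ± 0.28) and the glutamate receptor gene GRM4 (2.69 ± 0.56) were higher too. The calls of GCGR, OXTR, AVPR1B, GFRA1, P2RY14 and GRM4 were lost in 4 or 5 of the 6 fits without 1 library (adjusted p up to 0.184). Those of GCGR, OXTR, AVPR1B, P2RY14 and GRM4 were also lost by the median of ratios (adjusted p = 0.109, 0.0525, 0.0922, 0.152 and 0.105, in that order).

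The lower receptors named here had low values in delta cells. P2RY1, a receptor for ADP, was at 0.180, 0 and 1.01 TPM in delta and 28.4, 17.5 and 42.3 TPM in beta cells (log2 -4.43 ± 0.55; adjusted p = 0.00613). ADRA2A, the adrenergic receptor that restrains insulin release, was at 0.863, 0 and 0.415 TPM in delta and 11.9, 20.4 and 16.2 TPM in beta cells (log2 -3.60 ± 0.53; adjusted p = 0.0118). PTGER3, a prostaglandin E2 receptor gene, was at 0, 0.586 and 0.423 TPM in delta and 16, 13.6 and 12 TPM in beta cells (log2 -3.49 ± 0.51; adjusted p = 0.0117). For these 3 genes the delta libraries were near 0 and no beta library was. PTGER4 (3.03, 0.213 and 0.908 against 16.5, 15.1 and 14.7 TPM; adjusted p = 0.0331) was lower as well. Among the fits without 1 library, P2RY1 was lost in 1 (adjusted p = 0.0607 without beta replicate 3). ADRA2A and PTGER3 were lost without any 1 beta library (adjusted p up to 0.0826), and PTGER4 in 4 of these fits (up to 0.155). PTGER4 was also lost with a pseudocount of 0.1 and without a filter. Without both libraries richest in acinar transcripts, none of the receptors called lower passed. SSTR3, a somatostatin receptor gene, lay higher in all delta libraries, at 33.2, 28.8 and 32 TPM in delta and 12.9, 14 and 4.53 TPM in beta cells, and was not called (log2 1.62 ± 0.45; adjusted p = 0.0958).

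**Figure D3:**
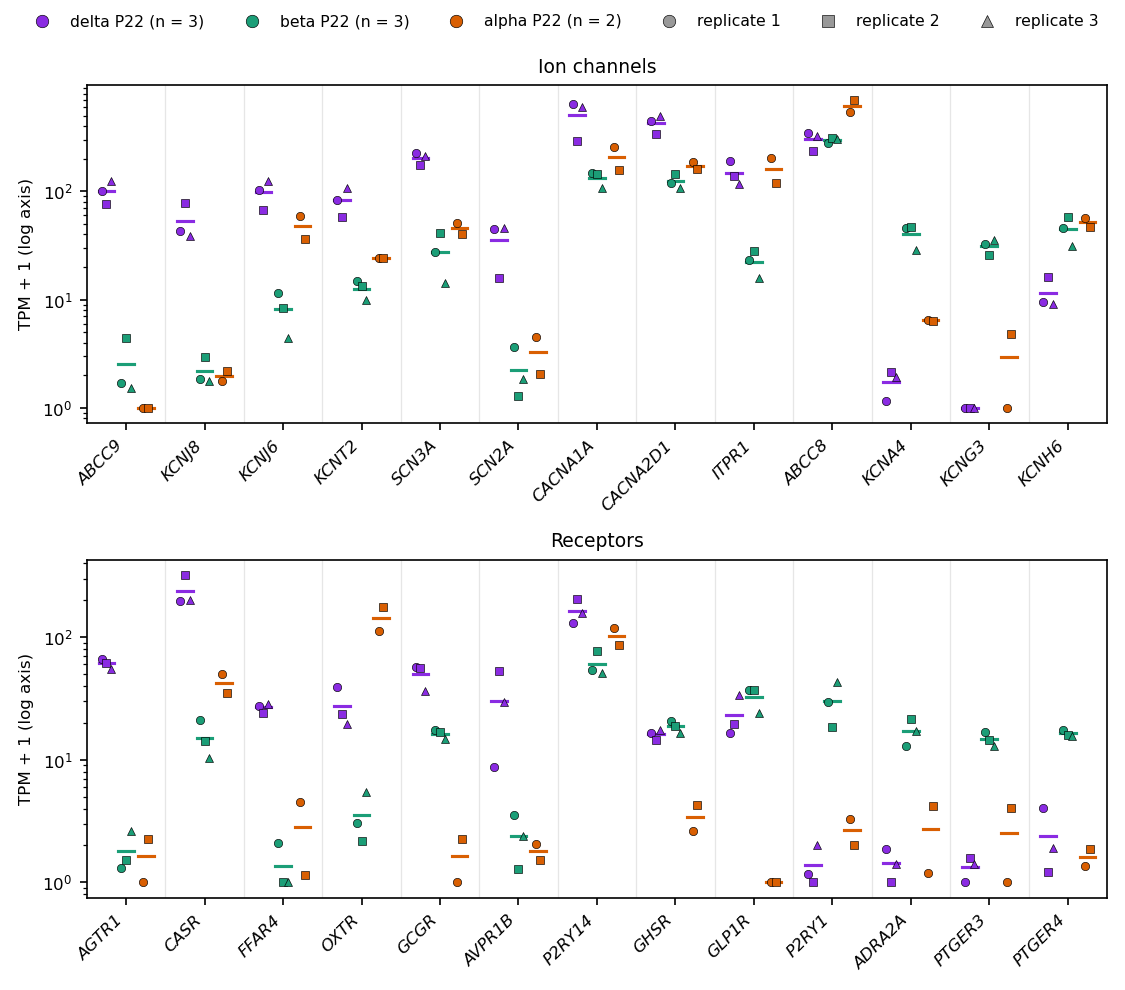
TPM plus 1 on a log axis for ion channel genes (top) and receptor genes (bottom) in the 3 delta, 3 beta and 2 alpha libraries of P22, with symbols for replicates and short lines for the group mean of TPM. ABCC9, KCNJ8, AGTR1 and FFAR4 are higher in every delta than in every beta library, whereas KCNA4, KCNG3 and P2RY1 show the reverse order and ABCC8, GHSR and GLP1R overlap.

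Genes of prohormone processing and granule release differed in few members. Of 64 listed genes 60 could be tested, and 3 were higher and 3 lower (6 and 6 without delta replicate 2, 1 and 3 by the median of ratios), with a median log2 of 0.30, close to that of all genes. The share called was 10%, against 3.22% of all genes. SCG2, the secretogranin II gene, was at 178, 341 and 176 TPM in delta and 1455, 1808 and 1460.0 TPM in beta cells (log2 -2.82 ± 0.34; adjusted p = 0.00475), and held throughout. CPE, which trims the ends of cut prohormones, was at 299, 408 and 317 TPM in delta and 711, 811 and 1087 TPM in beta cells (log2 -1.34 ± 0.29; adjusted p = 0.048). STXBP6, a regulator of SNARE complexes, was at 88.5, 57.1 and 85.3 TPM in delta and 20.3, 3.99 and 10.1 TPM in beta cells (log2 2.86 ± 0.52; adjusted p = 0.0262). SCG2 and CPE were lower and STXBP6 higher in every delta library. SYTL5 (2.36 ± 0.46) and RPH3AL (1.12 ± 0.24), which bind Rab proteins on granules, were higher. CPE, STXBP6, SYTL5 and RPH3AL were lost in 4 or 5 of the fits without 1 library (adjusted p up to 0.176). CHGB, the chromogranin B gene, was at 2748, 6143 and 2652 TPM in delta and 1339, 1145 and 729.8 TPM in beta cells, higher in all delta libraries without passing (log2 1.77 ± 0.47; adjusted p = 0.0863; adjusted p = 0.0356 without delta replicate 2). PCSK2, the other prohormone convertase gene, lay lower in all of them, at 662, 620.1 and 671 TPM in delta and 686, 1051 and 844 TPM in beta cells (log2 -0.38 ± 0.29; adjusted p = 0.464).

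Of 17 tested genes of transmitter synthesis and transport none was higher and 2 were lower (1 and 2 without delta replicate 2; median log2 0.44). These were GAD2, given above, and SLC18A2, together 11.8% of the list against 3.22% of all genes. SLC18A2, which loads monoamines into vesicles, was at 0, 0.915 and 0.183 TPM in delta and 8.98, 6.28 and 25 TPM in beta cells (log2 -3.23 ± 0.65; adjusted p = 0.0359). Its call was lost without any 1 library except delta replicate 2 (adjusted p up to 0.154). SLC18A1, the related transporter, overlapped, at 34.7, 35.3 and 102 TPM in delta and 40.5, 30.8 and 7.25 TPM in beta cells (log2 1.21 ± 0.66; adjusted p = 0.313).

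Glucose sensing and fuel metabolism genes passed in 1 direction. Of 46 tested genes none was higher and 5 were lower, with a median log2 of -0.10. The share called was 10.9%, against 2.30% higher and 0.925% lower over all genes. Without delta replicate 2 the list held 1 higher and 9 lower, where 11.2% and 2.85% of all genes were called. SLC2A2, the GLUT2 glucose transporter gene, was at 20.3, 4.02 and 3.58 TPM in delta and 139.6, 161 and 108 TPM in beta cells (log2 -4.10 ± 0.57; adjusted p = 0.00949). G6PC2, which dephosphorylates glucose 6-phosphate, was at 32.8, 9.86 and 6.19 TPM in delta and 319, 290.5 and 481 TPM in beta cells (log2 -4.69 ± 0.53; adjusted p = 0.00422). PFKFB2, which sets the level of a glycolysis activator, was at 119.9, 66.5 and 122 TPM in delta and 585, 445 and 349 TPM in beta cells (log2 -2.17 ± 0.33; adjusted p = 0.0136). GPD1, of the glycerol phosphate shuttle, was lower as well (-1.71 ± 0.35), next to HADH. HADH held throughout. G6PC2 held in all fits but that without both libraries richest in acinar transcripts (adjusted p = 0.0539). SLC2A2, PFKFB2 and GPD1 were lost without any 1 beta library, and GPD1 also without delta replicate 1 or 3 (adjusted p 0.052 to 0.176). GAPDH (97.5, 140.1 and 57.7 against 236, 191 and 237 TPM; adjusted p = 0.0917) and ENO2 (41.2, 83.9 and 45.8 against 10.5, 20.3 and 17.4 TPM; adjusted p = 0.0541) lay in opposite directions and were called without delta replicate 2 (adjusted p = 0.0186 and 0.0415) but not with all 6 libraries. Of 36 tested genes of monogenic diabetes, RFX6 was higher and INS, MNX1, NKX2-2, SLC2A2 and DNAJC3 were lower (16.7% called, against 3.22% of all genes).

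In the list of cAMP and G protein signalling 49 genes could be tested, and 4 were higher and 2 lower (13 and 4 without delta replicate 2, 2 and 4 by the median of ratios; median log2 0.41). Calls made up 12.2% of the tested members, against 3.22% of all genes. Without delta replicate 2, 11.2% of all genes were higher and 2.85% lower. PLCXD3, a phospholipase-related gene, was at 24.2, 10.3 and 8.74 TPM in delta and 155, 184 and 182 TPM in beta cells (log2 -3.63 ± 0.38; adjusted p = 0.00285) and held throughout. RGS4, which shortens G protein signals, was at 81.2, 179 and 84.6 TPM in delta and 20, 12.9 and 25.3 TPM in beta cells (log2 2.46 ± 0.40; adjusted p = 0.0178). RAPGEF4, the cAMP sensor EPAC2, was at 84, 58.2 and 75.6 TPM in delta and 24.9, 28.6 and 17 TPM in beta cells (log2 1.60 ± 0.31; adjusted p = 0.0313). PRKACA, the catalytic subunit of protein kinase A, was lower in every delta library, at 27, 41.2 and 20.3 TPM in delta and 90.4, 94.2 and 69.3 TPM in beta cells (log2 -1.54 ± 0.32; adjusted p = 0.0428). PRKCB (2.63 ± 0.46) and the phosphodiesterase gene PDE1C (2.13 ± 0.47) were higher. RGS4, RAPGEF4, PRKACA, PRKCB and PDE1C were each lost in 3 or more fits without 1 library (adjusted p up to 0.177), and RGS4 and PDE1C by the median of ratios (adjusted p = 0.0798 and 0.0845).

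Genes of neuronal adhesion and axon guidance changed in both directions. Of 79 listed genes 69 could be tested, and 7 were higher and 5 lower (14 and 6 without delta replicate 2, 2 and 6 by the median of ratios), with a median log2 of 0.53. The share called was 17.4%, against 3.22% of all genes. Without delta replicate 2, 11.2% of all genes were higher and 2.85% lower. CHL1, a cell adhesion molecule of the L1 family, was at 86.5, 99.7 and 103 TPM in delta and 0.843, 3.92 and 0.212 TPM in beta cells and at most 0.054 TPM in alpha cells (log2 5.45 ± 0.54; adjusted p = 0.00216). SEMA6A, a membrane-bound semaphorin, was at 111, 67.6 and 73.4 TPM in delta and 4.71, 4.50 and 1.33 TPM in beta cells (log2 4.31 ± 0.45; adjusted p = 0.00285). MAP1B, a microtubule-associated protein of growing axons, was at 137, 145 and 154 TPM in delta and 59, 62.3 and 45.2 TPM in beta cells (log2 1.38 ± 0.24; adjusted p = 0.0232). CHL1 and SEMA6A held throughout and lay near 0 in both alpha libraries (0.616 and 0.193 TPM for SEMA6A). On the other side, CNTN1, a contactin gene, was at 47.1, 35.9 and 48.7 TPM in delta and 151, 400.0 and 245 TPM in beta cells (log2 -2.47 ± 0.36; adjusted p = 0.012). DCX, a microtubule protein of migrating neurons, was at 1.10, 1.87 and 1.79 TPM in delta and 20.7, 17.7 and 15.6 TPM in beta cells (log2 -2.88 ± 0.46; adjusted p = 0.0168). EPHA7 (0, 0.072 and 0 against 6.29, 5.40 and 11.5 TPM), EPHB1 (0, 0.216 and 1.39 against 10.8, 8.12 and 14.2 TPM) and CDH18 (0.079, 0.375 and 0.145 against 12.9, 15.3 and 4.07 TPM) were lower too. SEMA3E (1.61 ± 0.31), CDH12 (2.53 ± 0.54), DSCAM (2.62 ± 0.56) and NFASC (1.21 ± 0.26) were higher. The other 10 of these 12 calls were each lost in at least 1 fit without 1 library: CNTN1 in 1 (adjusted p = 0.0804 without beta replicate 3), DCX without any 1 beta library, and the others in 4 or 5 (adjusted p up to 0.192). In the list of Notch, Wnt, Hedgehog and BMP genes, 1 of 44 was called (2.27%, against 3.22% of all genes). This gene, BMP7, was listed at 0 in all delta libraries and at 4.93, 4.59 and 3.47 TPM in beta cells (adjusted p = 0.0467; lost without any 1 library except delta replicate 2, adjusted p = 0.0831 to 0.17).

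Few genes of protein folding and of the early response passed the test. Of 35 tested genes of the unfolded protein response none was higher and 2 were lower (1 and 6 without delta replicate 2), with a median log2 of -0.55. These were ERO1B, given above, and DNAJC3, a co-chaperone that restrains PERK signalling (5.71% called, against 3.22% of all genes). DNAJC3 was at 51.6, 57.8 and 57.2 TPM in delta and 159, 139 and 289 TPM in beta cells (log2 -1.72 ± 0.31; adjusted p = 0.0265). Beta replicate 3 was the highest library for both, and the DNAJC3 call was lost without any 1 of 5 libraries (adjusted p up to 0.0915). Of 32 dissociation and early response genes 3 were higher and none lower (5 and 2 without delta replicate 2, 1 and 0 by the median of ratios), with a median log2 of 0.60 (0.18 by the median of ratios). The share called was 9.38%, against 3.22% of all genes. HSPH1, a heat shock protein, was at 1458, 849 and 979 TPM in delta and 174, 115 and 251 TPM in beta cells (log2 2.63 ± 0.36; adjusted p = 0.00906). DNAJB1, another heat shock protein, was at 1642, 1058 and 972 TPM in delta and 277, 234 and 456 TPM in beta cells (log2 1.94 ± 0.36; adjusted p = 0.0277). PPP1R15A, which is induced by stress, was at 176, 205 and 295 TPM in delta and 80.2, 95.1 and 70.9 TPM in beta cells (log2 1.42 ± 0.28; adjusted p = 0.0329). Delta and beta libraries did not overlap for these genes, but the 2 alpha libraries differed widely between themselves, at 453 and 99.1 TPM of HSPH1 and 344 and 38.6 TPM of DNAJB1. HSPH1 was lost in 2 fits (adjusted p = 0.0538 to 0.0578 without beta replicate 1 or 2). DNAJB1 and PPP1R15A were each lost in 5 of the fits without 1 library (adjusted p up to 0.143). They passed in 8 and 7 of the 18 alternative fits, and were also lost by the median of ratios (adjusted p = 0.105 and 0.0946). FOS, named here after its values were seen, overlapped, at 349, 466 and 615 TPM in delta and 498, 585 and 539 TPM in beta cells (log2 -0.22 ± 0.29; adjusted p = 0.696). Of the 32 genes, 10 had all delta libraries above all beta libraries and none below. Over all genes these shares were 21.7% and 6.86%. The part that cell handling may have in these levels was not tested.

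Markers of other pancreatic cells were present in both groups. None of 19 acinar, 13 endothelial, 19 immune, 12 neural and Schwann, and 4 red blood cell markers tested was called. Over all genes 3.22% were called, and at that share lists this short would hold few calls or none. The acinar sums, given above, also ranged widely within each group, so a lack of calls does not show equal amounts of such cells. Summed duct markers were at 759, 1160.4 and 1003 TPM in delta and 2063, 1471 and 1194 TPM in beta replicates 1, 2 and 3. SPP1 was the 1 duct gene called of 19, at 16.3, 4.62 and 20.1 TPM in delta and 158, 78.8 and 65.6 TPM in beta cells (log2 -2.90 ± 0.55; adjusted p = 0.0307). Beta replicate 1, which had the highest SPP1, also had the most CFTR (10, 5.40 and 29.4 against 105, 47.2 and 42 TPM). Summed mesenchyme markers were at 406, 233 and 609 TPM in delta and 280.2, 1057 and 260.2 TPM in beta replicates 1, 2 and 3. FN1, the fibronectin gene, was the 1 gene called of 16, at 81.4, 136 and 176 TPM in delta and 17.5, 29.2 and 27 TPM in beta cells (log2 2.33 ± 0.36; adjusted p = 0.014). ACTA2, of smooth muscle and activated stellate cells, was at 0, 0 and 12 TPM in delta and 13.8, 332 and 24.6 TPM in beta cells. Beta replicate 2 therefore held the most mesenchyme and beta replicate 1 the most duct transcripts. SPP1 was lost without any 1 of 4 libraries and FN1 without any 1 beta library (adjusted p up to 0.133 and 0.0757). Whether contaminating cells contribute to other calls was not tested. Y-linked transcripts were clear in beta replicate 3 alone of the 6 libraries (ZFY at 0, 0 and 0 TPM in delta and 0, 0 and 21.3 TPM in beta cells).

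None of the 32 interferon and antigen presentation, 38 ribosomal protein, 40 mitochondrial respiration or 38 cell division genes tested was called with all 6 libraries. Over all genes 3.22% were called, so few calls would fall in lists of this size at that share. Their medians were log2 0.12, -0.44, -0.45 and -0.14, against 0.33 over all genes. Delta replicate 2 had the highest summed ribosomal protein level of the delta libraries (7742, 15019.6 and 7558 TPM in delta and 13603, 11891 and 13168 TPM in beta replicates 1, 2 and 3). Without it, 1 ribosomal protein gene was higher and 11 were lower, and 7 respiration genes were lower, where 11.2% of all genes were higher and 2.85% lower. Of the interferon genes 4 of 32 were then higher and of the division genes 3 of 38 were higher and 1 lower, shares near those of all genes.

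**Figure D4:**
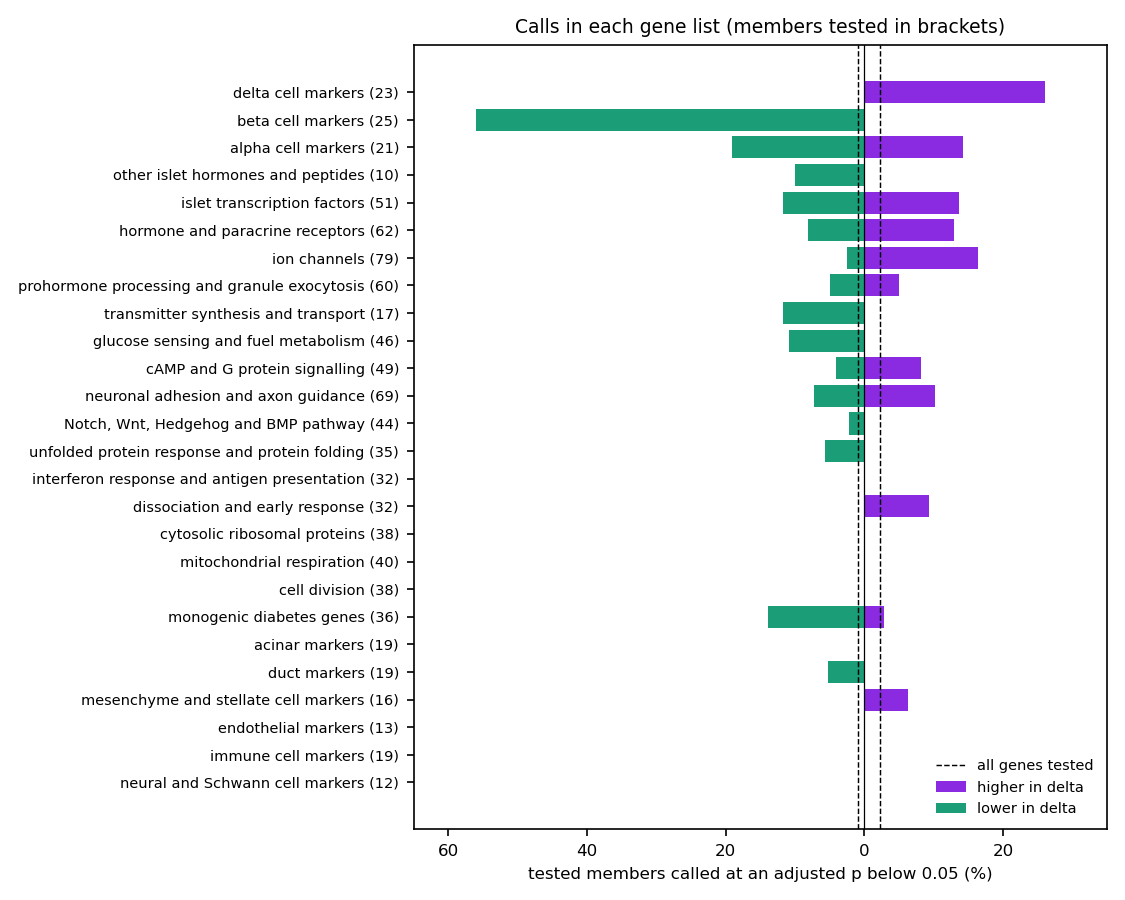
Share of the tested members of each gene list that was called higher (right) or lower (left) in delta cells at P22, in percent, with the number of members tested in brackets and the shares over all 15452 genes as dashed lines (2.30% and 0.925%). Lists with fewer than 10 tested members are left out. Beta cell markers reach farthest to the left and delta cell markers farthest to the right.

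The same difference could be read at E90, where 2 delta and 2 beta libraries were available. SST was at 32466 and 27713 TPM in delta and 90.7 and 37.9 TPM in beta cells at E90, and its difference was not called different between the ages (interaction log2, P22 minus E90, 0.26 ± 0.92; adjusted p = 0.936). INS was at 26057 and 20365 TPM in the E90 delta libraries, more than in any P22 delta library, and the change of its difference was not called (-3.14 ± 1.37; adjusted p = 0.419). GCG was at 2222 and 3016 TPM in the E90 delta libraries, against 33.6, 53.6 and 31.9 TPM at P22 (-5.07 ± 1.12; adjusted p = 0.115). PPY was at 438 and 649.5 TPM in delta and 282 and 92.9 TPM in beta cells (-5.23 ± 2.11; adjusted p = 0.374). The E90 delta libraries thus held more INS and GCG than the P22 delta libraries, while the test of a change in the difference from beta cells was not passed. Y-linked transcripts differed with the groups at E90: ZFY was at 46.6 and 49.4 TPM in delta and 0.046 and 0 TPM in beta cells. At that age their part cannot be told apart from that of cell type, and it was not tested in the age comparison.

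Several genes of the P22 difference had the same order of cell types at E90. RBP4 stood at 604 and 498 TPM in delta and 21.1 and 31.4 TPM in beta cells. CASR stood at 346 and 265 against 11.6 and 17.7 TPM and ABCC9 at 89.4 and 52.6 against 0.402 and 0.112 TPM. AGTR1 stood at 54.6 and 69.5 against 0.078 and 1.97 TPM, HHEX at 81.1 and 55.9 against 1.67 and 1.30 TPM, and ISL1 at 292 and 352 against 54.7 and 66.3 TPM. In each of these genes the order of the cell types was that of P22, and the change of the difference was not called (adjusted p between 0.498 and 0.997). None of the 23 delta markers and 25 beta markers tested was called for a change with age. Over all genes only 0.219% were, so a lack of calls in lists of this size is near that share and not particular to the markers. NEUROG3 was at 311 and 304 TPM in delta and 15.4 and 18.3 TPM in beta cells at E90 (-2.03 ± 0.69; adjusted p = 0.295). With 2 libraries a group at E90, a test not passed does not show that the differences were equal.

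Of 15965 genes tested, the difference of delta minus beta cells was more positive at P22 than at E90 for 23 and more negative for 12 (in all 0.219% of the genes; 0.144% and 0.0752% in each direction). Leaving out 1 library moved the total from 35 to between 4 and 168. It was 98 and 36 without delta E90 replicate 1, 6 and 2 without delta E90 replicate 2, 76 and 92 without delta P22 replicate 2, and 25 and 30 without delta P22 replicate 3. Without either beta E90 replicate it was 3 and 1, and without beta P22 replicates 1 and 2 it was 4 and 1, and 7 and 3. Of 32 dissociation and early response genes 6 were among the 23 and none among the 12, with a median of 1.53 against 0.14 over all genes. FOS was at 12.8 and 15.3 TPM in delta and 259 and 301 TPM in beta cells at E90, while the groups overlapped at P22 (4.01 ± 0.37; adjusted p = 0.00276). EGR1 was at 42.4 and 53.2 TPM in delta and 269 and 266 TPM in beta cells at E90, and at 982, 1055 and 967 TPM in delta and 511, 492 and 438 TPM in beta cells at P22 (3.53 ± 0.30; adjusted p = 0.00276). Both were low in delta cells at E90 and not at P22. The 2 alpha libraries of P22 differed widely between themselves, at 1654 and 58.8 TPM of FOS and 1619 and 95.6 TPM of EGR1. The part of cell handling in the change with age was not tested. NR4A1 (3.01 ± 0.44), DNAJB1 (4.40 ± 0.55), HSPH1 (3.27 ± 0.48) and PPP1R15A (3.21 ± 0.40) changed in the same direction. FOS and EGR1 passed in all 10 fits without 1 library, but with the spread shared over all 37 libraries they did not (adjusted p = 0.339 and 0.224). NR4A1, DNAJB1, HSPH1 and PPP1R15A passed in 4 to 6 of the 10 (adjusted p up to 0.22).

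The 5 largest changes with age in either direction among genes with a mean of at least 10 TPM in a group were of mixed kinds. The heat shock gene HSPA1L was at 1.95 and 0.382 TPM in delta and 32.8 and 33.8 TPM in beta cells at E90 and at 71.9, 122 and 54.1 TPM in delta and 11.8, 13.4 and 24.5 TPM in beta cells at P22 (6.33 ± 0.69; adjusted p = 0.0103). GPC5, a heparan sulfate proteoglycan gene, was at 0.239 and 0.446 TPM in delta and 25.4 and 53.2 TPM in beta cells at E90 and at 67.5, 11.5 and 36.8 TPM in delta and 6.62, 3.90 and 7.56 TPM in beta cells at P22 (7.04 ± 0.97; adjusted p = 0.0219). GIPC1 was low in both cell types at E90 (2.64 and 5.13 TPM in delta and 3.87 and 4.46 TPM in beta cells), and high in delta cells alone at P22 (5.73 ± 0.91; adjusted p = 0.0402). HSPA1L and GPC5 had the opposite order of cell types at the 2 ages. The histone genes HIST1H1T and H3F3A, the latter with a shared symbol, were listed at 0 in both E90 delta libraries, so no fold is given. They were at 28.9, 60.2 and 11.5 and 392, 162 and 250.3 TPM in the P22 delta libraries (adjusted p = 0.0219 and 0.0172). In the other direction, LDHB, a lactate dehydrogenase gene with a shared symbol, was at 126 and 189 TPM in delta and 2.45 and 1.87 TPM in beta cells at E90 and at 71.9, 44.5 and 26.4 TPM in delta and 16, 12.2 and 22.1 TPM in beta cells at P22 (-4.25 ± 0.63; adjusted p = 0.0291). MTLN, which encodes a mitochondrial micropeptide, was at 117 and 70.8 TPM in delta and 21.5 and 34.8 TPM in beta cells at E90 (-6.17 ± 0.97; adjusted p = 0.0386). SPP1 (-4.92 ± 0.81) and CLDN10 (-3.26 ± 0.51), both duct genes and the latter with a shared symbol, also belonged here. SPP1 was at 16.4 and 18.7 TPM in delta and 3.76 and 3.35 TPM in beta cells at E90, and its P22 values are given above. C5orf49 (-5.51 ± 0.85) completed the 5. These 10 calls were each lost in 2 or more of the 10 fits without 1 library (adjusted p up to 0.235).

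**Figure D5:**
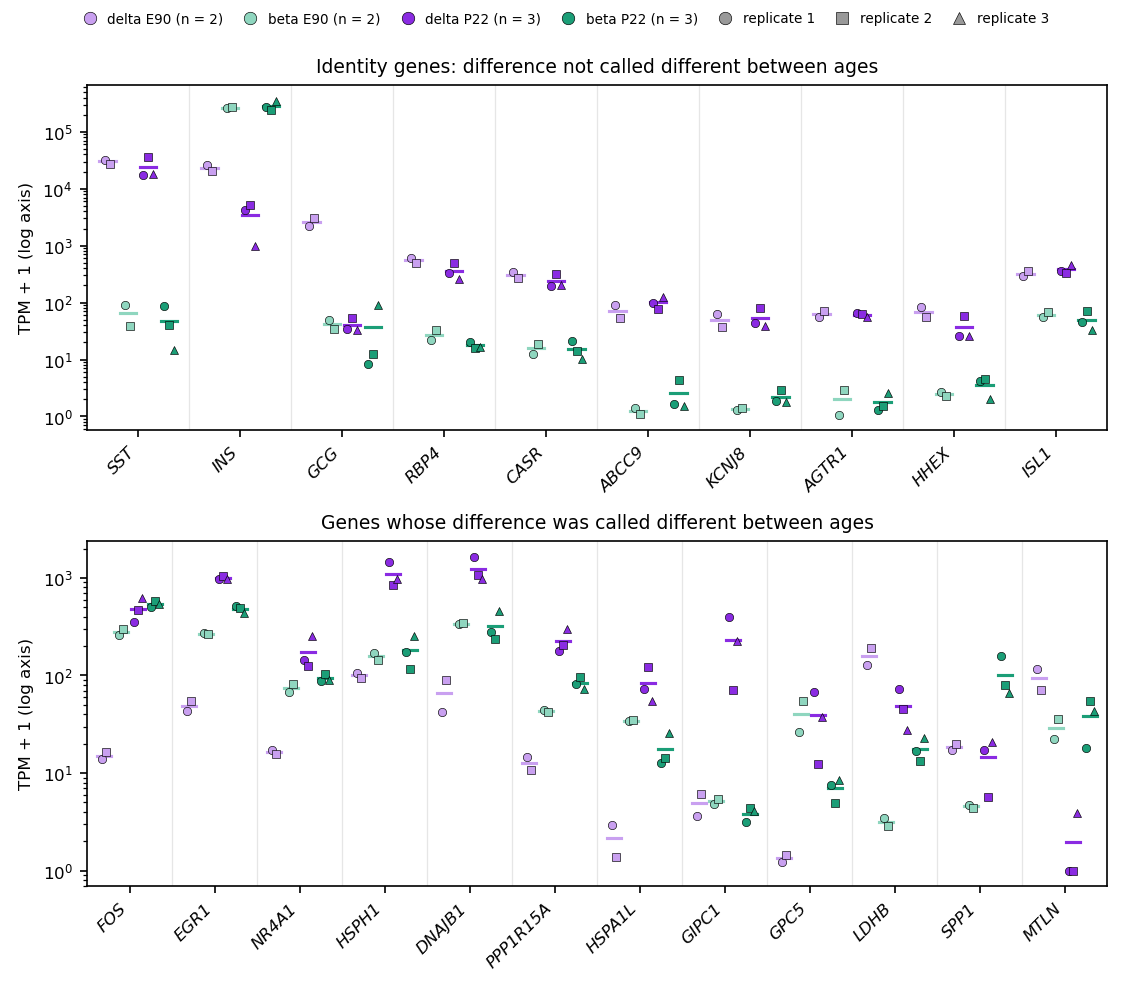
TPM plus 1 on a log axis in the 2 delta and 2 beta libraries of E90 and the 3 delta and 3 beta libraries of P22, with symbols for replicates and short lines for the group mean of TPM. Top, identity genes whose difference was not called different between ages, which keep the order of the cell types apart from GCG. Bottom, genes whose difference was called different, among them FOS and EGR1, which are low in the E90 delta libraries only.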

How the data were processed

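RNA from FACS-sorted pig pancreatic cells was sequenced as paired reads. TPM values per gene were made and deposited by the authors in 1 table of all libraries, with Salmon 0.11.3 per the submitters' processing notes. The annotation, and whether strand was used in counting, is not given in the sources used here. Each column sums to 1000000, so a transcript that takes a large share lowers the others, and depth cannot be recovered from TPM.

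Columns were matched to libraries by title. Symbols came from the table for 18624 genes and from an Ensembl list for 168. Values were taken as log2(TPM + 1), where the pseudocount of 1 understates folds of low genes. A gene entered the fit by limma 3.58.1 in R 4.3.3 (eBayes with a trend) with 1 TPM or more in 2 or more libraries, and genes with a Benjamini-Hochberg adjusted p below 0.05 were called. This fit held the 6 P22 libraries; the age comparison was an interaction term over 10 libraries. The pipeline was tested on simulated data.

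Named genes were, among those called with a symbol, the 15 that rose most and the 15 that fell most with a mean of at least 10 TPM and no overlap; members of the hormone, marker and transcription factor lists; of other lists, called members and up to 8 by adjusted p; and the 5 largest age interactions each way with INS, GCG, SST and PPY. FOS and some of the other age and contamination values were chosen after they were seen. Some members of the lists are counted but not reported here by name. The comparison, the lists and the tests were chosen with earlier results of these data known.

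Alternatives changed the pseudocount, the filter, the scaling, the trend, sample weights and the libraries fitted, and left out each library in turn. Removing 2 abundant genes without a symbol, and leaving out both libraries highest in acinar markers, were added after seeing the data. In the fits without 1 library, a group of 2 remains.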

Additional observations from a re-analysis of the deposited data

Results flagged for a closer look

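For 16 genes described above, the difference of delta minus beta cells itself differed between E90 and P22 by the interaction test in limma. The values in brackets are log2 interactions, P22 minus E90. It was more positive at P22 for the early response and heat shock genes FOS (4.01), EGR1 (3.53), NR4A1 (3.01), DNAJB1 (4.40), HSPH1 (3.27), PPP1R15A (3.21) and HSPA1L (6.33), and for GPC5 (7.04) and GIPC1 (5.73). It was also more positive for H3F3A (7.58) and HIST1H1T (7.11), whose fitted values rest on 2 delta libraries listed at 0 at E90 and are no measure of a fold. It was more negative for MTLN (-6.17), C5orf49 (-5.51), SPP1 (-4.92), LDHB (-4.25) and CLDN10 (-3.26). At E90 the Y-linked gene ZFY was also far apart between the cell types (46.6 and 49.4 TPM in delta and 0.046 and 0 TPM in beta cells). What goes with it in these differences cannot be told apart from cell type at that age and was not tested. Within 1 cell type and age, the 2 alpha libraries of P22 were at 1654 and 58.8 TPM of FOS, 1619 and 95.6 TPM of EGR1 and 323 and 29.6 TPM of NR4A1. The part of cell handling was not tested.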

How the results depend on the processing

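Leaving out 1 library moved the 498 calls at P22 to between 98 and 2147 (60 to 1711 higher and 38 to 436 lower in delta cells), and the 35 calls of the age comparison to between 4 and 168. The highest counts came without delta replicate 2. Sharing the spread over all 37 libraries gave 3638 calls at P22 (2745 higher, 893 lower) and 763 for the age comparison. Sample weights gave 776 (560 higher, 216 lower), and leaving out both libraries highest in acinar markers 315 (221 higher, 94 lower). Higher calls numbered 221 without a filter, 191 by the median of ratios, 225 by quantile normalization, 148 without hormone and mitochondrial genes and 218 without a trend, and lower calls 219 by the median of ratios and 216 by quantile normalization. Other total counts were within 1.5 times the main ones. No called value changed sign in these fits. No paired analysis was possible because the labels do not say which delta and beta libraries came from the same animal. Read depth is unknown for these values, which limits what can be said of genes listed at 0.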

Other observations

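A pair of genes for which the table and the list of names give no symbol took 16.1 to 19.8% of the TPM of the P22 delta libraries and 7.52 to 16.2% of the P22 beta libraries. With them removed and the columns scaled again, 443 genes were higher and 135 lower in delta cells, and the median difference over all genes was log2 0.44.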
